A study of Rattus norvegicus with 30 samples.

Results

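The respiratory chain and the ATP synthase are the protein complexes of the mitochondrial inner membrane that turn the oxidation of food into ATP. The genes described here are the nuclear genes for their subunits: 90 genes among the 14217 that the array covered with at least 1 probe set carrying a single gene symbol. They were taken by name, as every symbol beginning with Ndufa, Ndufb, Ndufc, Ndufs, Ndufv, Sdha to Sdhd, Uqcr, Cox4, Cox5, Cox6, Cox7, Cox8 or Atp5. For the 10 genes with several probe sets, the brightest on average over the 30 arrays was used. By function the 90 genes fell into 34 for complex I, 4 for complex II, 7 for complex III, 17 for complex IV, 15 for the ATP synthase, 12 for assembly or regulatory factors whose names share the same beginnings, and 1 pseudogene.

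The rats were female, of the Sprague-Dawley strain and aged 10 wk, and RNA from the left lobe of the liver of each of the 30 was measured on 1 Affymetrix rat expression array. The 10 control rats were not handled and carry a time of 24 h in their labels. The 10 rats handled for 1 day (24 h) and the 10 handled for 4 days (96 h) were weighed, restrained in Broome restrainers, given water by oral gavage each day and bled from the tail vein. There was no unhandled group at 96 h, so the longer handling and the later time cannot be told apart. The purpose of the comparison was to measure how far such routine procedures by themselves move liver gene expression. All values below are log2 of the deposited intensity, on a scale on which every array has a mean intensity of 1. Each probe set was compared only with itself between rats.

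Electrons from NADH enter the chain at complex I and electrons from succinate at complex II. They pass through complex III and cytochrome c to complex IV, which reduces oxygen, and the protons pumped on the way drive the ATP synthase. Hepatocytes are rich in mitochondria, and the subunits are encoded in part by the mitochondrial and in part by the nuclear genome, whose genes for them are often transcribed together. Several complex IV subunits exist in alternative forms that are typical of liver, of heart and skeletal muscle, of lung or of testis.

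Control rats 1, 2 and 3 stood apart from the other 27 rats and are shown separately throughout. All of the hepatocyte markers that could be examined were high (5 of the 6 listed had a probe set, with mean log2 intensities of 5.34 to 6.06), and their summed intensity lay between 273 and 319 in all 30 rats. The correlation between any 2 arrays over all probe sets was between 0.946 and 0.976. In bulk tissue, fewer cells of a type and less RNA per cell cannot be told apart. Each p-value sets a difference of group means against the spread between rats.

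The promoters of the members were examined because nuclear genes for these complexes are known targets of NRF1, of ETS-family factors such as GABPA, and of YY1. The RefSeq table (GRCr8) held a 300-base window, from 250 bases before to 50 bases from the start of the transcript, for 82 of the 90 genes. The sequences given here are those of the 5 members in which control rats 1 to 3 stood highest above the other rats, and of Atp5po, the member that varied most closely with the others. Capitals mark matches to GCGCANGCG (NRF1), CCGGAAG (ETS factors) or AAGATGGC (YY1) on either strand.
Ndufaf7: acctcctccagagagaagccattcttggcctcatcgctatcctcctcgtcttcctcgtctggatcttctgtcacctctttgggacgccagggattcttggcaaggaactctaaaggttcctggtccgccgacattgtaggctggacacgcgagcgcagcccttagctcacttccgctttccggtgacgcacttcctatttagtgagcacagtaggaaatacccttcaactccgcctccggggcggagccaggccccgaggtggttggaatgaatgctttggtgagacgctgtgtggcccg
Ndufv3: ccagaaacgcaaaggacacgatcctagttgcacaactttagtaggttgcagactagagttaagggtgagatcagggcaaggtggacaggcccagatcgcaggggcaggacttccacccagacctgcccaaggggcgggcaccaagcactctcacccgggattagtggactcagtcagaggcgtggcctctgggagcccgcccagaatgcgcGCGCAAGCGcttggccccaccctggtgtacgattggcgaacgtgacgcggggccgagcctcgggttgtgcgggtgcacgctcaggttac
Ndufaf8: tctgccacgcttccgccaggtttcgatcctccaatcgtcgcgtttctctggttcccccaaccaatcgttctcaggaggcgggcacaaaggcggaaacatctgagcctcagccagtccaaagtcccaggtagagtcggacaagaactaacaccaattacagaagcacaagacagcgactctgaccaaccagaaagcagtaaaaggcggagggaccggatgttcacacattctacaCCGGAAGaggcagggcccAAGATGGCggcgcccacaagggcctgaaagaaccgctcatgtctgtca
Ndufs8: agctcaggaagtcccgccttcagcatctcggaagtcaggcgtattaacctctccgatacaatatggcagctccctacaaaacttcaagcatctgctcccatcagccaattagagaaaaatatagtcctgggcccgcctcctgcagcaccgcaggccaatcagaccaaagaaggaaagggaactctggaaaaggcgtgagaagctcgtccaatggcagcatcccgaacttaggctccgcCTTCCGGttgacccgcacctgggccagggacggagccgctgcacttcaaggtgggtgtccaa
Ndufa12: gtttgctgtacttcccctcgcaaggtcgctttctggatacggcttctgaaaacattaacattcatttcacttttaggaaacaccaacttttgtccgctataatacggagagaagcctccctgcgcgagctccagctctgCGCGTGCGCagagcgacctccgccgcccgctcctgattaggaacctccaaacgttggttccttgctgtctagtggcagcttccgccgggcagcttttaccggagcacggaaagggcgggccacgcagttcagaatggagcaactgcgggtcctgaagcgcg
Atp5po: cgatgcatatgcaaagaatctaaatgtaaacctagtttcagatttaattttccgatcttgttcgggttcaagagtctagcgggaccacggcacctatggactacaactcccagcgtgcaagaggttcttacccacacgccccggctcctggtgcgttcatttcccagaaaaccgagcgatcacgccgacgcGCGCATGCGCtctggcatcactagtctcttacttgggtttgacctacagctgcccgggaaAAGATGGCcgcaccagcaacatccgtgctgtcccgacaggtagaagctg
The windows are chr6:21871916-21872215 (minus strand) for Ndufaf7, chr20:9613536-9613835 (plus strand) for Ndufv3, chr10:105879658-105879957 (plus strand) for Ndufaf8, chr1:210573649-210573948 (minus strand) for Ndufs8, chr7:30658066-30658365 (plus strand) for Ndufa12 and chr11:44657434-44657733 (minus strand) for Atp5po. With the start base as 0, the NRF1 match began at -39 in Ndufv3 and at -111 in Ndufa12. The ETS match began at -12 in Ndufs8 and at -16 in Ndufaf8, and a YY1 match followed at 2 in Ndufaf8 and at 1 in Atp5po. In Atp5po the NRF1 letters matched on both strands, at -59 and -58, and the matches overlap. The Ndufaf7 window held none of the 3 motifs.

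These letters were counted in the promoters of the members, of all genes on the array and of the mitochondrial ribosome genes. The NRF1 letters were found in 21 of 82 member windows (25.6%) and in 10.7% of the 13242 windows of genes on the array. The ETS letters were found in 25 (30.5%) against 14.3%, and the YY1 letters in 17 (20.7%) against 4.49%. A window with at least 1 of the 3 was found for 50 members (61.0%) and for 25.4% of the genes on the array. In the 61 windows of mitochondrial ribosome genes the shares were close to those of the members, with NRF1 letters in 11 (18.0%), ETS letters in 20 (32.8%), YY1 letters in 14 (23.0%) and at least 1 of the 3 in 35 (57.4%). A second form of the YY1 site, ATGGCGG, was found in 18 member windows (22.0%) against 8.07%, and shares its first letters with the end of AAGATGGC. For the other motifs searched the shares lay closer together: 46.3% against 55.7% for GGGCGG (SP1), 35.4% against 36.8% for CCAAT, 9.76% against 8.46% for TATAAA, 3.66% against 2.70% for TGACGTCA (CREB), 7.32% against 6.81% for TCANNTGA (TFE3 or USF), and 0 against 0.370% for TCACCCCAC (SREBP). These 10 searches describe letters in the windows and were not tested.

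No member passed the threshold in any comparison. With limma and Benjamini-Hochberg adjustment over 31042 probe sets, 0 of 90 members had an adjusted p under 0.1 after 1 day of handling (background 0.0902% of all probe sets), after 4 days (background 0.657%), or between 4 days and 1 day (background 0%). The smallest adjusted p of a member was 0.289 after 1 day, 0.222 after 4 days and 0.957 between the handled groups. The t-test named in the methods and an exact rank-sum test, each adjusted in the same way, also called 0 members. At an unadjusted p under 0.05, 7 of 90 members were lower and 0 higher after 1 day, where 4.86% of all probe sets were lower and 4.47% higher. After 4 days 4 members were lower and 2 higher, against 5.89% and 5.4% of all probe sets. Between the handled groups 1 member, the pseudogene Cox6c-ps1, had such a p (background 5%).

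The intervals of the differences were narrow. After 1 day, the 95% interval of the difference lay within 1.2-fold in either direction for 70 of 90 members (77.8%), and within 1.5-fold for 87. After 4 days the counts were 71 and 89. Among all genes with a mean log2 intensity above 0, the interval lay within 1.2-fold for 58.5% after 1 day and for 57.4% after 4 days. All 15 ATP synthase genes and all 7 complex III genes were within 1.2-fold at both times. The spread between rats of 1 group was small for these genes: the median SD was 0.105 on the log2 scale for the members, against 0.152 for the genes with a mean log2 intensity above 0 and 0.371 for all probe sets. The most even member was Atp5mc3, a gene for subunit c of the proton-conducting ring (SD 0.05), with log2 intensities of 4.83 to 4.98 in the controls, 4.85 to 5.03 in rats handled for 1 day and 4.90 to 5.04 in those handled for 4 days.

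**Figure D1:**
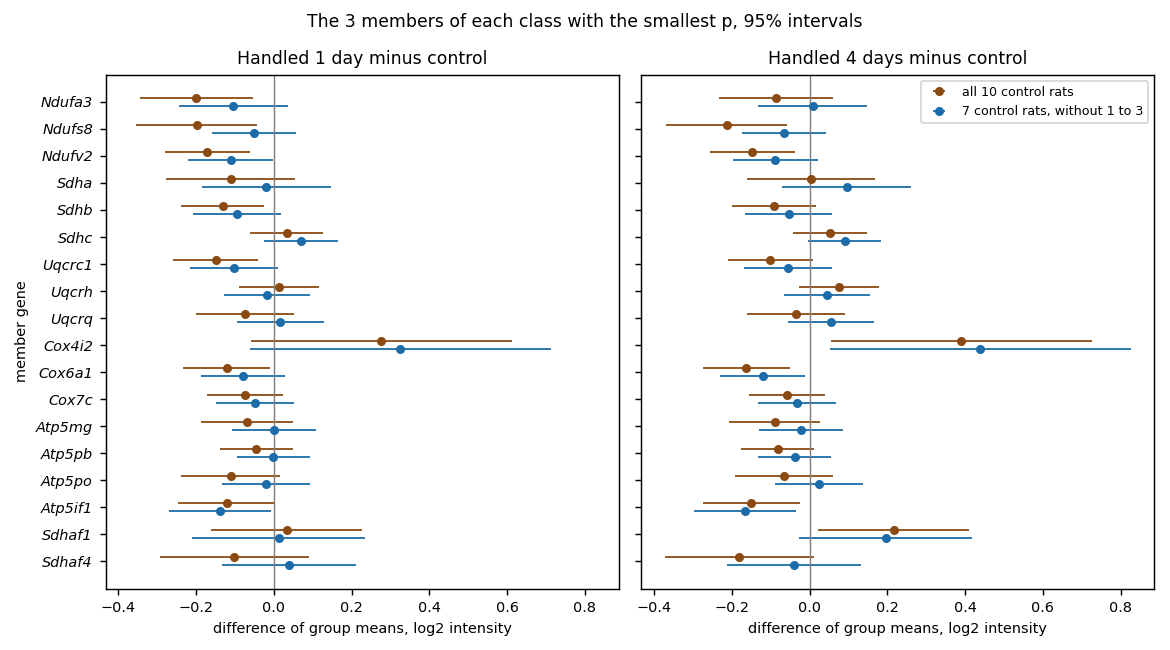
Differences between handled and control rats in log2 intensity (x axis, group means from limma with 95% intervals) for the 3 members of each class with the smallest p, after 1 day (left) and 4 days (right). Brown points use all 10 control rats and blue points leave out control rats 1 to 3. Leaving these rats out moved most differences upward, and Ndufs8 went from -0.20 to -0.05 after 1 day.

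Complex I held the member with the lowest p after 1 day. Ndufv2 encodes an iron-sulfur subunit of the module that oxidises NADH. Its log2 intensity was 2.89 at the lowest, 3.10 at the median and 3.28 at the highest in control rats, 2.82, 2.90 and 3.10 after 1 day, and 2.86, 2.95 and 2.99 after 4 days. The groups overlapped, with the control rats higher on the whole. The log2 difference was -0.17 (SE 0.05, limma adjusted p = 0.289) after 1 day and -0.15 (SE 0.05, adjusted p = 0.257) after 4 days. Without control rats 1 to 3 it was -0.11 and -0.09.

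Ndufs8 encodes the iron-sulfur subunit that carries electrons towards ubiquinone. It ran from 1.77 to 2.46 in control rats (median 2.02), from 1.76 to 2.08 after 1 day (median 1.88) and from 1.78 to 1.97 after 4 days (median 1.89). All 7 control values below 2.05 lay in the range of the handled rats, and the other 3 were those of control rats 1 to 3. It differed from control by -0.20 on the log2 scale (SE 0.08, limma adjusted p = 0.411) after 1 day and -0.21 (SE 0.08, adjusted p = 0.245) after 4 days. Without control rats 1 to 3 the differences were -0.05 and -0.07.

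Ndufa3, an accessory subunit of the membrane arm, ran from 2.35 to 2.88 in control rats (median 2.60), from 2.27 to 2.63 after 1 day (median 2.38) and from 2.38 to 2.72 after 4 days (median 2.51). The difference after 1 day was -0.20 on the log2 scale (SE 0.07, limma adjusted p = 0.373), and -0.10 without control rats 1 to 3. Ndufa13, a further accessory subunit, differed by -0.11 after 1 day (limma adjusted p = 0.520) and by -0.04 after 4 days. Over the 34 complex I genes, 27 were lower than control after 1 day and 27 after 4 days, with median log2 differences of -0.04 at both times.

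Complex II, which is also the succinate dehydrogenase of the citric acid cycle, has 4 subunits and all were measured. Sdhb, its iron-sulfur subunit, had a median log2 intensity of 3.47 in control rats (3.34 to 3.63), 3.33 after 1 day (3.20 to 3.51) and 3.39 after 4 days (3.28 to 3.46). The difference was -0.13 after 1 day (SE 0.05, limma adjusted p = 0.428) and -0.09 after 4 days. For Sdha, the flavoprotein that binds succinate, the differences were -0.11 and 0.00. For Sdhc, a membrane anchor, they were 0.03 and 0.05. With control rats 1 to 3 left out the differences were -0.09 and -0.05 for Sdhb, -0.02 and 0.10 for Sdha, and 0.07 and 0.09 for Sdhc. The 4 genes thus had values on both sides of 0, and none passed.

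Complex III passes electrons from ubiquinol to cytochrome c. Uqcrc1, a core subunit, had a median log2 intensity of 2.96 in control rats (2.67 to 3.09), 2.76 after 1 day (2.67 to 2.96) and 2.85 after 4 days (2.71 to 2.91). After 1 day 1 rat, at 2.96, lay apart from the others, of which the next was at 2.82. The log2 difference was -0.15 after 1 day (SE 0.05, limma adjusted p = 0.370) and -0.10 after 4 days (adjusted p = 0.485). Uqcrh, the hinge protein that contacts cytochrome c1, differed by 0.01 and 0.08, and Uqcrq by -0.07 and -0.04.

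In complex IV the lowest p belonged to Cox6a1, the form of subunit VIa found in liver and most other tissues. It ran from 3.61 to 4.02 in control rats (median 3.77), from 3.51 to 3.80 after 1 day (median 3.68) and from 3.48 to 3.71 after 4 days (median 3.61). The groups overlapped, and the medians stood in the order control, 1 day, 4 days. Its log2 difference was -0.12 after 1 day (SE 0.05, limma adjusted p = 0.493) and -0.16 after 4 days (SE 0.05, adjusted p = 0.222, the smallest of any member). Without control rats 1 to 3 it was -0.08 and -0.12. Cox7c, with a median of 3.81 in control rats, differed by -0.07 and -0.06.

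The subunit forms typical of other tissues were dim. Cox6a2, Cox7a1 and Cox8b are the forms of heart and skeletal muscle, Cox6b2 that of testis and Cox4i2 that of lung, and Ndufa4l2 is a relative of the complex IV subunit Ndufa4 that is best known from hypoxic cells. Their median log2 intensities in control rats were -3.27 for Cox6a2, -5.79 for Cox7a1, -5.84 for Cox8b, -3.81 for Cox6b2, -3.32 for Cox4i2 and -3.53 for Ndufa4l2. Over all probe sets the median of a control array lay between -3.08 and -3.01. The forms usual in liver had medians of 4.23 for Cox4i1, 3.77 for Cox6a1, 3.62 for Cox6b1, 4.38 for Cox8a and 4.31 for Ndufa4, but intensities of different probe sets are not comparable as amounts.

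Cox4i2 had the largest difference of any member after 4 days. It ran from -4.47 to -2.97 in control rats (median -3.32), from -3.84 to -2.66 after 1 day (median -3.11) and from -3.50 to -2.56 after 4 days (median -2.94). Its log2 difference was 0.28 (SE 0.16, limma adjusted p = 0.630) after 1 day and 0.39 (SE 0.16, adjusted p = 0.342) after 4 days, with a 95% interval of 0.06 to 0.73 at the later time. Without control rats 1 to 3 it was 0.33 and 0.44. For the other 5 dim forms the log2 difference lay between -0.02 and 0.28, and none passed. The usual forms Cox4i1, Cox8a and Ndufa4 differed by 0.04 or less in either direction at both times.

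The ATP synthase genes differed little between the groups. Of the 15 genes, 14 were lower than control at each time, but by little: the median log2 difference was -0.05 after 1 day and -0.03 after 4 days, and the largest was -0.11. Atp5po, the subunit at the top of the stalk that holds the catalytic head still, had a median log2 intensity of 3.48 in control rats (3.31 to 3.74), 3.40 after 1 day (3.21 to 3.52) and 3.42 after 4 days (3.33 to 3.50). Its difference was -0.11 after 1 day (SE 0.06, limma adjusted p = 0.604) and -0.07 after 4 days. Atp5mg and Atp5pb, subunits of the membrane part and of the stalk, differed by -0.07 and -0.05 after 1 day, and by -0.09 and -0.08 after 4 days. When control rats 1 to 3 were left out, 8 of the 15 genes were lower after 1 day and 5 after 4 days.

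Among the assembly or regulatory factors, Atp5if1 and Sdhaf1 had an unadjusted p under 0.05. Atp5if1 encodes the inhibitor that stops the ATP synthase from running backwards. It ran from 0.14 to 0.47 in control rats (median 0.32), from 0.01 to 0.36 after 1 day (median 0.20) and from -0.02 to 0.29 after 4 days (median 0.21). The difference was -0.12 (SE 0.06, limma adjusted p = 0.547) after 1 day and -0.15 (SE 0.06, adjusted p = 0.322) after 4 days. Its differences without control rats 1 to 3 were no smaller, at -0.14 and -0.17.

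Sdhaf1 helps insert the iron-sulfur clusters of Sdhb. Its median log2 intensity was 0.25 in control rats (0.16 to 0.67), 0.34 after 1 day (0.09 to 0.78) and 0.58 after 4 days (0.24 to 0.77). The values in every group were widely spread. It differed by 0.03 after 1 day and by 0.22 after 4 days (SE 0.10, limma adjusted p = 0.375). Sdhaf4, which helps mature Sdha, differed by -0.10 and -0.18, with control rats 1 to 3 at 0.31, 0.49 and 0.27 and the other 27 rats between -0.36 and 0.25.

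**Figure D2:**
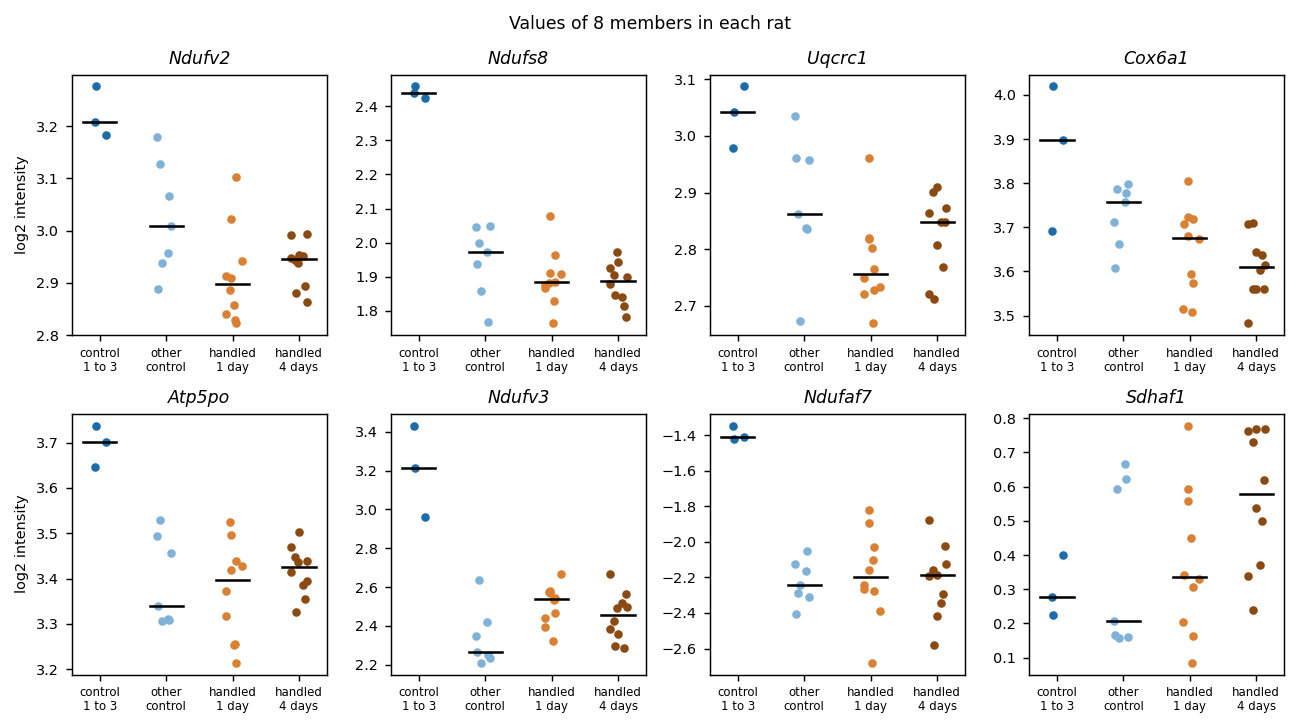
Log2 intensity (y axis) of 8 members in each rat, with control rats 1 to 3 apart from the other 7 control rats; each point is 1 rat and each bar the median. For Ndufs8, Ndufv3 and Ndufaf7 control rats 1 to 3 lie far above all others, whereas the other control rats overlap both handled groups.

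Between the handled groups, the members were almost level. The median log2 difference, 4 days minus 1 day, was 0.01, with 53 members higher and 37 lower, and the 95% interval lay within 1.2-fold for 73 of 90. Cox6c-ps1, which is annotated as a pseudogene of Cox6c and may share probes' targets with it, had a median log2 intensity of -2.34 after 1 day (-2.68 to -2.01) and -2.62 after 4 days (-3.06 to -2.43), against -2.62 in control rats. The difference was -0.29 (SE 0.10, limma adjusted p = 0.957).

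A second probe set of Ndufv3 was the one exception among the 101 probe sets of the members, and it was chosen for description after its values were seen. Ndufv3 is an accessory subunit of the NADH-oxidising module. The second probe set, dimmer than the one that stood for the gene, ran from -1.62 to -1.08 in control rats (median -1.43), from -1.98 to -1.30 after 1 day (median -1.56) and from -1.96 to -1.48 after 4 days (median -1.71). The log2 difference after 4 days was -0.35 (SE 0.09, limma adjusted p = 0.0908), 0.787 of the control level, and after 1 day -0.23 (SE 0.09, adjusted p = 0.420). Without control rats 1 to 3 the difference after 4 days was still -0.35, with an adjusted p of 0.103. It was -0.24 with the 3′ to 5′ ratio of the Gapdh control probe sets as a covariate (SE 0.11, limma adjusted p = 0.603). That ratio was higher in every rat handled for 4 days than in any control rat, so this fit cannot fully separate handling from it. The brighter probe set of the same gene differed by -0.15 after 4 days (SE 0.12, adjusted p = 0.691), so that the probe sets disagree on whether the gene passed. Without control rats 1 to 3 the brighter probe set was higher, by 0.11 (limma adjusted p = 0.575), so that the probe sets then disagree in direction. None of the other 9 genes with several probe sets had one that passed.

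The small downward shift of the members was seen with control rats 1 to 3 in the comparison and not without them. With all control rats, 65 of 90 members (72.2%) were lower after 1 day and 66 (73.3%) after 4 days, against 50.8% and 49.5% of all probe sets, with median log2 differences of -0.04 and -0.03. Without the 3 rats, 43 members (47.8%) were lower after 1 day and 31 (34.4%) after 4 days. Over all probe sets the shares were 52.2% and 50.8%. The members' medians were 0.00 and 0.02, and after 4 days 59 of 90 were higher. Again 0 members passed at either time (background 0.329% and 0.828%). At an unadjusted p under 0.05 there were 4 members after 1 day (background 8.5%) and 3 after 4 days (background 11.4%). In this comparison Ndufv3 was higher after 1 day by 0.17 (SE 0.07, limma adjusted p = 0.455) where it had been lower by -0.09 with all control rats.

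**Figure D3:**
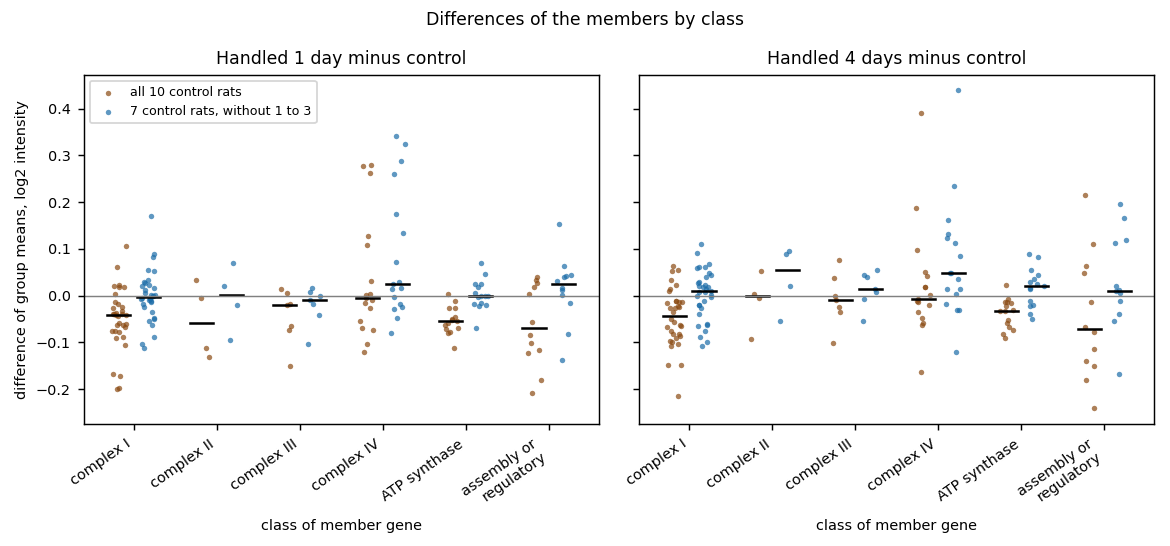
Difference of group means in log2 intensity (y axis) for each member by class (x axis), after 1 day (left) and 4 days (right); each point is 1 gene and each bar the class median, and the pseudogene is not drawn. With all 10 control rats (brown) the medians of complex I and the ATP synthase lie below 0, and without control rats 1 to 3 (blue) they lie at about 0 or above.

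Control rats 1 to 3 had higher values than the rest for a large part of the members. In 22 of 90 members (24.4%) all 3 rats lay above every one of the other 27 rats, where 2.95% of all probe sets did so. In 0 members did all 3 lie below the other 27, where 3.03% of all probe sets did. Bright genes differed more often in these rats: of the 3671 genes with a mean log2 intensity above 0, 10.1% lay above, and of the 76 members at that level 26.3%. The median log2 difference between the 3 rats and the other 27 was 0.17 over the members, a level 1.12-fold higher, and -0.01 over all probe sets, with 72 of 90 members higher. The 3 rats belong to 1 group and were set apart after their profiles were seen, so these counts are a description without a test.

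By class, the 22 genes were 10 of 34 for complex I, 6 of 15 for the ATP synthase, 4 of 12 assembly factors, 1 of 7 for complex III and 1 of 17 for complex IV. No complex II gene was among them. Ndufaf7, a methyltransferase needed for complex I assembly, was at -1.35, -1.42 and -1.41 in control rats 1 to 3, and between -2.68 and -1.82 in the other 27. The mean was 1.76-fold higher. Ndufv3 was at 3.43, 3.21 and 2.96, and between 2.21 and 2.67 in the others (1.69-fold). On the probe sets that stood for them, both genes thus separated these rats with a clear gap. The second, dimmer probe set of each gene did not. For Ndufv3 it was at -1.62, -1.10 and -1.42 in control rats 1 to 3, and another control rat was higher, at -1.08. The range was -1.98 to -1.30 in rats handled for 1 day and -1.96 to -1.48 in those handled for 4 days. For Ndufaf7 it was at -3.77, -3.01 and -3.79, against -4.24 to -3.67 after 1 day and -4.56 to -3.22 after 4 days.

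Ndufaf8, a further complex I assembly factor, was at 0.67, 0.79 and 0.51 in control rats 1 to 3, against -0.16 to 0.30 in the others (1.52-fold). Ndufs8 was at 2.44, 2.46 and 2.42, against 1.76 to 2.08 (1.45-fold). Ndufa12, an accessory subunit of the peripheral arm, was at 2.76, 2.67 and 2.60, against 1.85 to 2.37 (1.44-fold). The 5 genes with the largest gap were therefore all subunits or assembly factors of complex I, and the promoter windows printed above hold an NRF1, ETS or YY1 match in all of them but Ndufaf7. Over the members the 3 motifs were about as common on both sides: 13 of the 21 genes with a window among the 22 held at least 1 (61.9%), and 37 of the other 61 (60.7%).

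The remaining 17 genes had smaller gaps. Sdhaf4, Ndufa3 and Ndufaf3 stood 0.47, 0.35 and 0.33 above the others on the log2 scale. Atp5f1a, the alpha subunit of the catalytic head, was at 4.05, 4.07 and 4.15 against 3.55 to 3.98, a gap of 0.31, and Atp5po at 3.65, 3.74 and 3.70 against 3.21 to 3.53, a gap of 0.30. Then came Uqcrq (0.28), Ndufv2 (0.27), Atp5mk (0.27), Atp5f1e (0.26), Ndufb11 (0.26), Ndufa1 (0.24), Atp5mf (0.21), Ndufb1 (0.20), Ndufb9 (0.19), Ndufa13 (0.18), Cox6b1 (0.17) and Atp5pb (0.16). The member furthest in the other direction was Ndufa6, an accessory subunit of complex I, at 3.61, 3.54 and 3.89 against 3.85 to 4.15 in the others, a gap of -0.32 in which only 1 of the 3 rats lay inside the range.

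**Figure D4:**
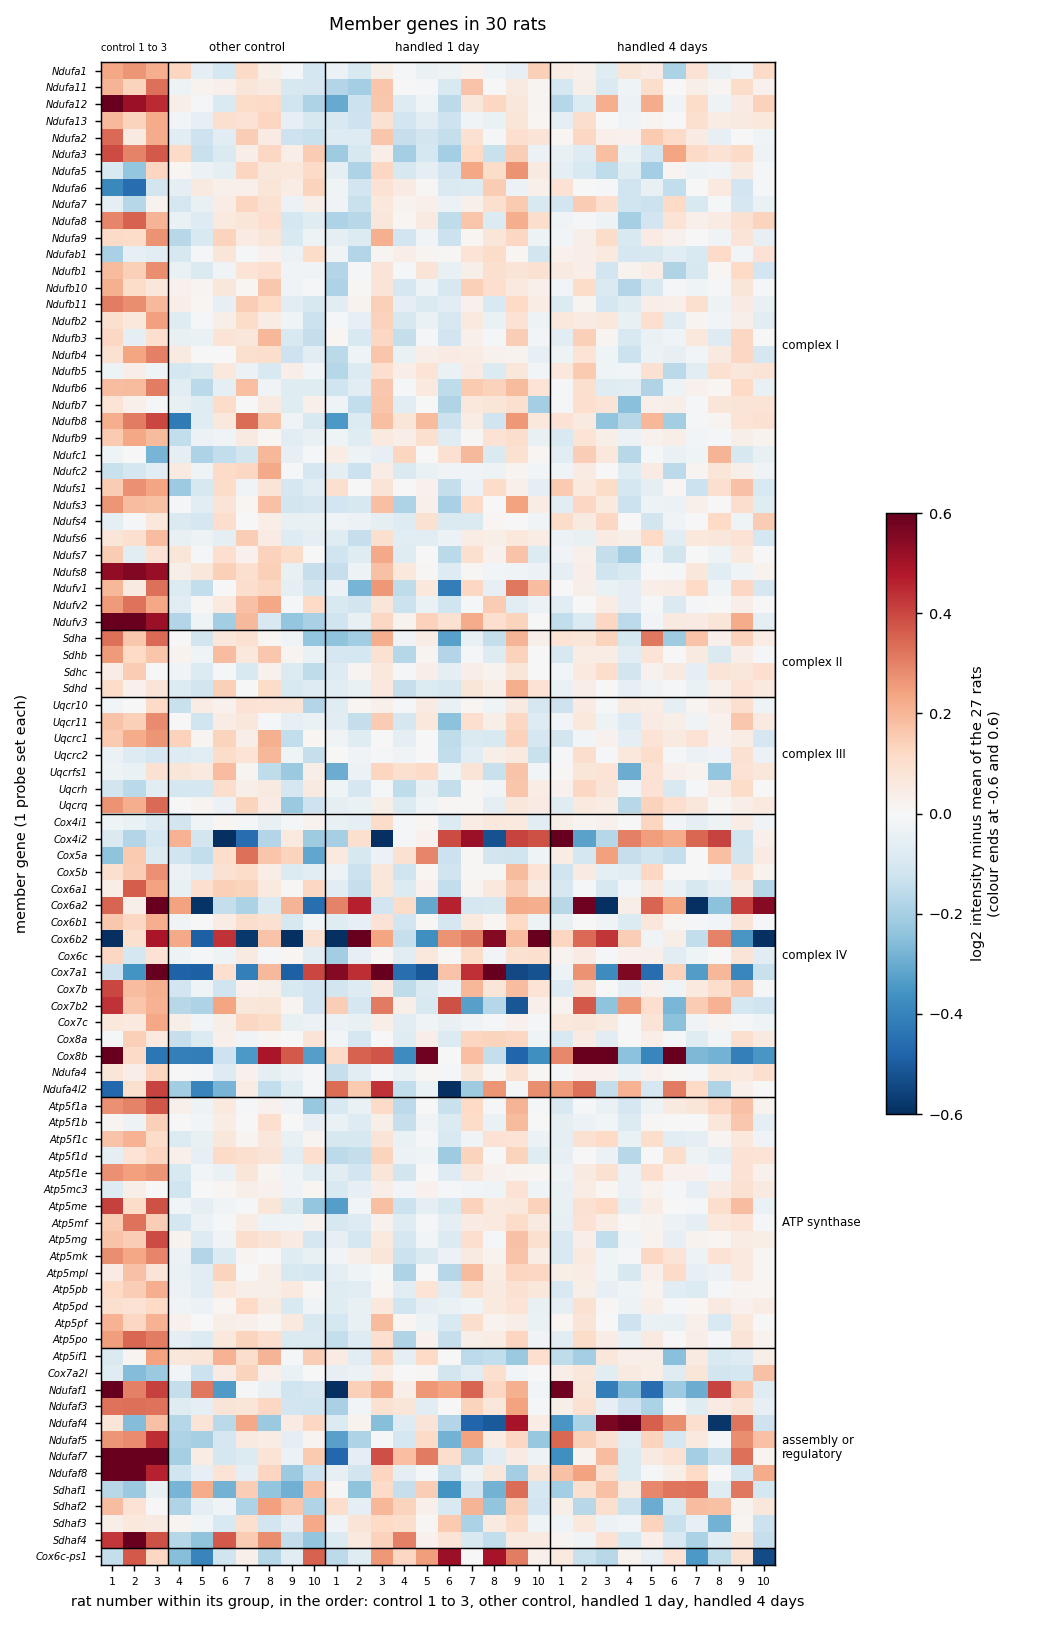
Log2 intensity of each member (rows, by class) in each of the 30 rats (columns), as the difference from the mean of the 27 rats other than control rats 1 to 3; red is higher and blue lower. The first 3 columns are red in most genes of complex I and the ATP synthase, and the dim complex IV forms such as Cox8b vary from rat to rat in every group.

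Some other measured quantities differed in the same rats, and some did not. The Gapdh control probe sets at the 3′ and the 5′ end of the transcript, whose ratio reflects how complete the RNA and its labelling were, differed by 0.64 to 0.69 on the log2 scale in control rats 1 to 3, by 0.55 to 0.70 in the other 7, by 0.66 to 0.83 in rats handled for 1 day and by 0.70 to 0.96 in those handled for 4 days. The ratio was thus higher on the whole in handled rats. Every rat handled for 4 days (lowest 0.7009) lay above every control rat (highest 0.7006). Handling for 4 days and this ratio therefore cannot be fully told apart. Control rats 1 to 3 lay within the range of the other control rats. With the ratio as a covariate, 0 members passed at either time in limma (background 0% after 1 day and 0.0161% after 4 days), and 58 members were lower after 1 day and 52 after 4 days. Sinusoidal endothelial markers (4 of 5 measured) were lower in control rats 1 to 3 for 4 of 4 genes, with a summed intensity of 11.2 to 12.1, against 12.7 to 14.2 in the other 7; the rats handled for 1 day lay between 12.6 and 15.2, and those handled for 4 days between 11.6 and 13.9. Stellate cell markers (5 of 5 measured) were higher for all 5, with 1.98 to 2.13 against 1.30 to 1.88, 1.28 to 2.02 and 1.42 to 2.08. Fat cell markers (4 of 4 measured) summed to 0.308 to 0.439 against 0.699 to 0.965, 0.416 to 1.12 and 0.480 to 1.22, and 1 of 4 was higher. These sums are of linear intensities and follow the brightest gene of a list. The fat cell markers had mean log2 intensities from -5.65 to -0.67, and the T and NK cell markers from -4.38 to -2.59. Kupffer cell markers (4 of 6 measured) were higher for 1 of 4, with sums of 11.1 to 12.8 against 11.7 to 17.4, 11.6 to 16.8 and 10.3 to 13.6. T and NK cell markers (6 of 6 measured) were higher for 1 of 6, with 0.547 to 0.671 against 0.606 to 0.885, 0.601 to 0.805 and 0.501 to 0.719. The hepatocyte sums, 273 to 301, lay in the range of the other control rats but for the lowest. The part of these quantities in the values of the members was not tested.

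The members varied together between rats. After group means were removed and control rats 1 to 3 left out, the median of the 4005 pairwise correlations over 27 rats was 0.31, and 83.2% of the pairs were above 0. For the 76 members with a mean log2 intensity above 0 the median was 0.41, against 0.00 for the 3671 genes at that level. Genes measured on the same arrays share each array's scaling and RNA quality, so these correlations are given as a description. The median within the ATP synthase was 0.57, with all 105 pairs above 0, and within complex I it was 0.41. Between complex I and the ATP synthase it was 0.49. Within complex IV it was 0.06, a class that holds the dim alternative forms, and among the assembly or regulatory factors 0.09.

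Single members differed in how closely they followed the rest. The median correlation with the other members over the 27 rats was highest for Atp5po (0.60), Cox6b1 (0.58), Ndufa13 (0.55) and Ndufs3 (0.55). It was lowest for Cox4i2 (-0.21), Cox7b2 (-0.11), Cox6a2 (-0.04) and Atp5if1 (-0.04). The median of the 90 members in a rat, as a deviation from the 27-rat mean, ran from 0.12 to 0.21 in control rats 1 to 3 and from -0.05 to 0.07 in the other 7 control rats. It ran from -0.09 to 0.10 after 1 day and from -0.05 to 0.07 after 4 days. The rats handled for 4 days thus covered nearly the same range as those 7 control rats, and the rats handled for 1 day a range wider on both sides.

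**Figure D5:**
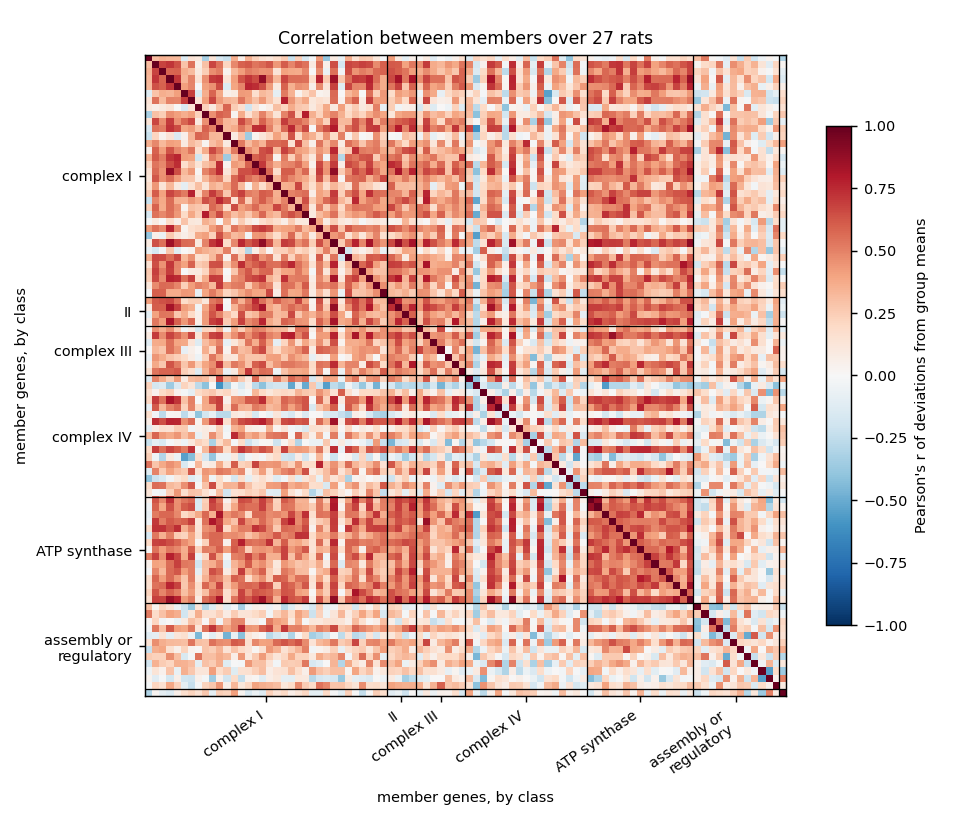
Pearson's r between members (both axes, genes by class) over 27 rats, after group means were removed and without control rats 1 to 3; red is positive and blue negative. The blocks within complex I, within the ATP synthase and between them are mostly red (median r of 0.41, 0.57 and 0.49), and the complex IV block is mixed (0.06).

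Genes around these complexes were examined in lists chosen by function. Of the 73 measured genes of the mitochondrial ribosome, which makes the subunits encoded in the mitochondrial genome, 0 passed at either time with limma. There 12 were lower and 0 higher at an unadjusted p under 0.05 after 1 day, and 13 lower and 0 higher after 4 days, with median log2 differences of -0.06 at both times, where 4.86% and 5.89% of all probe sets were lower. Leaving out control rats 1 to 3 reduced this to 4 lower and 1 higher after 1 day and to 7 lower and 0 higher after 4 days, with medians of -0.02 at both times. In that fit 1 gene passed after 4 days (background 0.828%), Mrps25 (-0.20, SE 0.05, limma adjusted p = 0.0718). It was at -0.13 with all control rats (adjusted p = 0.309). In control rats 1 to 3, 15 of the 73 (20.5%) lay above the other 27 rats and 2 below. Other lists held 32 assembly and insertion factors outside the name rule, 22 regulators of mitochondrial genes and 11 genes linked to the chain. In these lists 0 genes passed in either comparison with all control rats. Leaving out control rats 1 to 3, 1 passed after 4 days (background 0.828%), Higd2a from the genes linked to the chain, a factor that associates with complex IV. It was at -0.20 (SE 0.05, limma adjusted p = 0.0861), and at -0.13 with all control rats (adjusted p = 0.368). The 11 genes linked to the chain came from Cyc1, Cycs, Cyct, Usmg5, Dmac2l, Dmac1, Tmem256, Higd1a, Higd2a, Etfa, Etfb, Etfdh, Dhodh and Gpd2. They are not all subunits of the complexes. In control rats 1 to 3 these 11 genes were not higher as a list. Of the 11, 3 were above the mean of the other 27 rats, 0 lay above all of them, and the median log2 difference was -0.10. Mrps25 and Higd2a were named after their values were seen.

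Among 12 citric acid cycle genes 1 passed, and among 15 carriers and channels 1 passed, both after 4 days (background 0.657%). Slc25a3 encodes the carrier that brings the phosphate for ATP synthesis into mitochondria. It ran from 3.75 to 4.03 in control rats (median 3.87), from 3.56 to 3.95 after 1 day (median 3.70) and from 3.47 to 3.80 after 4 days (median 3.55). It was lower by a log2 difference of -0.28 after 4 days (SE 0.06, limma adjusted p = 0.0412) and -0.15 after 1 day (adjusted p = 0.407). Without control rats 1 to 3 it passed after 4 days (-0.30, limma adjusted p = 0.0329), and with the Gapdh ratio as a covariate it did not (-0.18, SE 0.07, adjusted p = 0.503). Suclg2, a subunit of succinyl-CoA synthetase, ran from 3.22 to 3.48 in control rats and from 3.55 to 3.84 after 4 days. It was higher by 0.22 (SE 0.05, adjusted p = 0.0581), and by 0.17 without control rats 1 to 3 (adjusted p = 0.144), rats in which it lay below all others. With the Gapdh covariate its difference was 0.23 (SE 0.07, limma adjusted p = 0.326). For both genes the covariate fit cannot fully separate 4 days of handling from the ratio, in which these groups did not overlap.

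None of the named regulators passed in limma. Log2 differences after 1 and 4 days were 0.08 and 0.12 for Ppargc1a, the coactivator of mitochondrial biogenesis, and -0.08 and 0.04 for Nrf1. They were 0.12 and 0.09 for Gabpa, and -0.26 and -0.19 for Esrra. For Tfam, which packages mitochondrial DNA and is needed for its transcription, they were 0.05 and 0.03. In control rats 1 to 3 Ppargc1a was at -3.31, -2.94 and -2.76, and the other 27 rats lay between -2.95 and -1.47. Lrpprc and Slirp encode partners that stabilise mitochondrial mRNA. Slirp was at 1.41, 1.46 and 1.44 in control rats 1 to 3, above the 0.75 to 1.13 of the others, while Lrpprc was at 0.97, 0.48 and 0.97, with the others from 0.87 to 1.66. Cyc1, the cytochrome c1 subunit of complex III that the name rule does not reach, was at 2.94, 2.96 and 3.04 against 2.55 to 2.95, and differed by -0.10 and 0.00 after handling. It was 1 of the 3 among the 11 genes linked to the chain that were higher in control rats 1 to 3.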

How the data were processed

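The authors labelled liver RNA by a 3′ in vitro transcription method, hybridised it to Affymetrix rat expression arrays and deposited 1 linear intensity per probe set and array. Affymetrix GCOS is the array software the methods name. The summary algorithm and the scaling target are not given in the sources used here. The values show that each array was scaled to a mean of 1. The authors' own tests used log10 ratios to the control mean from Rosetta Resolver, which were not used here. The 57 Affymetrix control probe sets among the 31099 were not tested, no filter on dim values was applied, and the other 31042 were tested on log2 of the deposited intensity in 1 fit of the 3 groups (limma 3.58.1, R 4.3.3, lmFit and eBayes, two-sided, Benjamini-Hochberg adjustment, called at an adjusted p under 0.1). The fitting steps were tested on simulated data. Tables and figures were made with Python 3.11.15, pandas 2.3.3 and matplotlib 3.10.9.

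Gene names came from the platform annotation, in which 20826 probe sets carry 1 symbol and 436 carry several; the latter were not used for genes, and 7 of them name a member. All 90 member symbols were in the RefSeq table. The members, the other gene lists and the tests were chosen with earlier results of these data known. Named members were the 3 of each class with the smallest p against control, the alternative complex IV subunits, and the 5 members with the largest gap in control rats 1 to 3. Named genes outside the members were Lrpprc, Slirp, Ppargc1a, Tfam, Nrf1, Gabpa, Esrra, Cyc1 and Cycs, of which Cycs had no probe set with its symbol alone. Genes that passed in a list and the second Ndufv3 probe set were named after their values were seen. Marker lists covered hepatocytes, endothelium, stellate cells, fat cells, bile duct, striated muscle, erythroid cells, Kupffer cells, neutrophils and lymphocytes (T and NK, B); none of their genes passed but Nkg7, lower after 4 days by a log2 difference of -0.42 (limma adjusted p = 0.0902, and 0.326 with the Gapdh covariate). With all control rats, 0.657% of all probe sets passed after 4 days. The fit with the Gapdh covariate cannot fully separate 4 days of handling from the ratio. Rats sharing a replicate number were different animals. The number of arrays limits the precision.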

Additional observations from a re-analysis of the deposited data

Results flagged for a closer look

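Within a group of 10 rats, 1 rat was far from the others in 7 of the 93 sets of values examined for the named members, where chance gives about 1 in 20. In control rats these were Cox4i2 in rat 6 (log2 intensity -4.47) and Cox8b in rat 1 (-4.18). After 1 day they were Uqcrc1 in rat 9 (2.96, with the next rat at 2.82) and Ndufa4l2 in rat 6 (-4.24). After 4 days they were Cox7c in rat 6 (3.52, with the next at 3.74), Cox4i1 in rat 5 (4.38) and Cox6b2 in rat 10 (-5.05). In 4 of the 7 the gene was one of the dim alternative forms.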

How the results depend on the processing

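No member was called in any comparison under the alternatives tried, with 1 exception: counting all probe sets of the members gave 1 call after 4 days, the second Ndufv3 probe set. Those alternatives were an offset, quantile normalization, array weights, an intensity trend, fits of 2 groups, a t-test, an exact rank-sum test, 1 probe set per gene, a filter on the dimmest 40%, a stricter threshold, the Gapdh covariate, and leaving out control rats 1 to 3 or each rat in turn. With the replicate block the count was also 0. The stricter threshold could only give 0 calls, as no member passed at an adjusted p under 0.1. Replicate numbers did not pair the rats: of 30 same-number pairs between groups, 1 had deviations that correlated over 0.1 (range -0.04 to 0.12). Of 62 differences of named members, none passed under any alternative, and of 2660 alternative values 74 changed sign. Alternatives that changed only the test, the estimate of spread, the threshold or the probe sets tested left the differences as they were. A change of sign was therefore possible in only part of the 2660 values. With the 7 other control rats alone as the range, a choice made after seeing the data, control rats 1 to 3 lay above it in 36 members and below it in 1. Leaving out each rat in turn gave 22 to 29 members above and 0 to 1 below. With fewer rats compared, both counts can only stay the same or rise, so these runs could not show a fall. Dim members have wide intervals: of the 14 with a mean log2 intensity at or below 0, 1 had a 95% interval within 1.2-fold after 1 day and 3 after 4 days.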
